A study of Homo sapiens with 5 samples.

Results

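The HES and HEY genes encode transcriptional repressors that share a basic helix-loop-helix domain for DNA binding and an Orange domain. HES1, HES2, HES4, HES5, HES6, HES7, HEY1, HEY2 and HEYL are the 9 members described here, out of 26506 gene symbols present in both deposited tables. The members were chosen by symbol with their FPKM values in all 5 libraries in view. Expected counts, where given, and the difference between the vector cultures were in view too. These levels and differences are therefore a description and carry no test. The cells were 22Rv1, a line established from a human prostate carcinoma, and RNA was sequenced from 1 library per group. All cultures were infected with lentivirus, kept in medium with 10% serum and collected after 72 hours. ESM1 cells overexpressed ESM1, which encodes the secreted proteoglycan endocan, and their control is Vector-1. ESM1-NLS and ESM1-NES cells overexpressed forms of ESM1 whose labels carry the usual abbreviations for a nuclear localisation and a nuclear export signal, and Vector-2 is the control of both. Values for ESM1 and Vector-1 stand in one table and those for the other 3 libraries in a second, separately normalised one. Neither the promoter of the transgene nor the number of clones was given by the labels.

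Notch signalling is the best known input to these genes. A ligand on a neighbouring cell binds a Notch receptor, the receptor is cut, and its intracellular domain joins the DNA-binding protein RBPJ and a Mastermind-like coactivator in the nucleus to switch on HES1, HES5, HEY1, HEY2 and HEYL. The proteins bind N box, class C and E box sites and recruit co-repressors such as those of the Groucho/TLE group, which keeps proneural genes off. HES6 differs from its relatives in that it antagonises HES1 in mouse cells. HES7 is known from the mouse segmentation clock.

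Notch acts on its target genes through RBPJ sites. Promoters are shown for HES1, HES4 and HES5 as examples with the RBPJ core. Those of HES6 and HES7, whose levels were low in ESM1 and Vector-1, are shown as examples without it. HES4 was also lower in ESM1 and Vector-1 than in the other libraries, with a gap of 1.02-fold. No link between the core and the levels is read. In the RefSeq promoter table of GRCh38.p14, a newer build than the hg19 of the deposited values, 8 of 9 members were found. Windows of 300 bases, 250 before and 50 after the start, were searched on both strands. The RBPJ core TGGGAA occurred in 5 of 8, those of HES1, HES4, HES5, HEY2 and HEYL, and in 24.3% of 27305 windows in the table. The longer form GTGGGAA, which contains the core, occurred in the same 5 and in 6.28% of windows. Cores began at -84 and -70 from the start in HES1, at -76 in HES4, and at -224 and -80 in HES5. The core was not found in the windows of HES2, HES6 and HES7. The N box CACNAG was in 3 of 8 windows, against 38% of all, and the class C site CACGNG, which overlaps the E box when its variable base is T, in 2 of 8, against 30.4%. A match is a run of letters and not a measured binding site. The 250 bases before the start are given 5′ to 3′ on the strand of the gene, with RBPJ cores in capitals (TTCCCA is the core on the opposite strand). HES1 lies at chr3:194135898-194136147 on the plus strand, HES4 at chr1:1000098-1000347 on the minus strand, HES5 at chr1:2530264-2530513 on the minus strand, HES6 at chr2:238240039-238240288 on the minus strand and HES7 at chr17:8124107-8124356 on the minus strand. The first 3 hold the core, and HES6 and HES7 do not.
HES1: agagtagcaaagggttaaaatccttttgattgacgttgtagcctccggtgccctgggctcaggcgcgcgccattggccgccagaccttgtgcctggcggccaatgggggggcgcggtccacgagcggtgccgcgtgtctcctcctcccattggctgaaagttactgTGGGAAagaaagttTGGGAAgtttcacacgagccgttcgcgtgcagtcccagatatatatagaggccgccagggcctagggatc
HES4: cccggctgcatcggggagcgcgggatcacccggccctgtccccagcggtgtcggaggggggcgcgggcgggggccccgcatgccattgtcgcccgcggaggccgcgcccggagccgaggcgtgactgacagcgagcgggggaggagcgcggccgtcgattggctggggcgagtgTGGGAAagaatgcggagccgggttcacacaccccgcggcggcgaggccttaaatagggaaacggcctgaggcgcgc
HES5: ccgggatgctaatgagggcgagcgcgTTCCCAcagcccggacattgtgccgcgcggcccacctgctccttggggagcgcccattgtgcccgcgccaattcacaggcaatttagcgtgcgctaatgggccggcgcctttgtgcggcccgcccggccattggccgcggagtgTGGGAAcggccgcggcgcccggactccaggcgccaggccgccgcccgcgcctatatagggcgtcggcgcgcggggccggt
HES6: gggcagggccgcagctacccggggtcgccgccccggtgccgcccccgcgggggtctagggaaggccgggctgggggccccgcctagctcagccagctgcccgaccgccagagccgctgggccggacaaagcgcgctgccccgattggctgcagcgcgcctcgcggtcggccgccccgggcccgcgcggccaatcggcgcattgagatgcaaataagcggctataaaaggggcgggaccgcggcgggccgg
HES7: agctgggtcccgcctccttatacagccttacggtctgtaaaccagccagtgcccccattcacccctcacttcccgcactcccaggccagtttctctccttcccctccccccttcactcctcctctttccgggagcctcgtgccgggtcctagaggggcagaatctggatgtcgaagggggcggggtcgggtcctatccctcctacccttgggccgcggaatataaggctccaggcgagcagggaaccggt

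Depth was 13725556 reads for ESM1 and 15169085 for Vector-1, both estimated, and 19975113 for ESM1-NLS, 18447256 for ESM1-NES and 24322216 for Vector-2. The ESM1 transcript reached 2437 FPKM with ESM1, 2627 FPKM with ESM1-NLS and 3431 FPKM with ESM1-NES and was listed at 0 in both vectors. All 10 luminal prostate markers examined, KLK3 and KRT8 among them, were at 1 FPKM or more in every library. Summed levels were 1.03 to 1.88 FPKM for 8 endothelial markers, nearly all of it ESAM, with CDH5 and KDR listed at 0 throughout. They were 7.44 to 13.1 FPKM for 8 fibroblast and smooth muscle markers, with ACTA2 at up to 6.36 FPKM, and 3.46 to 6.31 FPKM for 8 leukocyte markers, with CD68 at up to 2.72 FPKM and MS4A1 listed at 0. With 1 library per group no p-value can be given. The range in brackets after a ratio is an exact 95% interval (Clopper-Pearson) on the reads and covers counting error only.

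Averaged over the 5 libraries, HES1 and HES4 had the highest levels of the family, although HES7 ranked above HES1 in ESM1-NES, with overlapping intervals, and 6 of 9 members averaged 1 FPKM or more over the libraries. FPKM is scaled by transcript length, which lets levels of genes be set side by side, but not by GC content. HES1 has 49.9% GC and HES4 74.0%, and the part of GC content in the order of members was not tested. The order is read against counting error only. HES1, the main Notch effector in many tissues, measured 22.53 FPKM with ESM1 and 21.04 FPKM with Vector-1, and 23.83 FPKM with ESM1-NLS, 22.51 FPKM with ESM1-NES and 22.58 FPKM with Vector-2. Of the 6 members it varied least, on 429 to 763 reads. HES4, a close relative of HES1 that mice lack, measured 23.08 FPKM with ESM1 and 15.58 FPKM with Vector-1, and 23.43 FPKM with ESM1-NLS, 24.99 FPKM with ESM1-NES and 23.74 FPKM with Vector-2. Vector-1 stood below the other 4 libraries, whose levels lay within each other's counting intervals. By counting intervals, HES1 and HES4 could be put in order only in Vector-1, where HES1 was higher.

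HES6 and HES7 were split by table. HES6 measured 9.14 FPKM with ESM1 and 7.06 FPKM with Vector-1, and 17.72 FPKM with ESM1-NLS, 19.56 FPKM with ESM1-NES and 17.4 FPKM with Vector-2. HES7 measured 3.61 FPKM with ESM1 and 2.36 FPKM with Vector-1, and 20.7 FPKM with ESM1-NLS, 23.39 FPKM with ESM1-NES and 20.09 FPKM with Vector-2. In both genes ESM1 and Vector-1 were low and the other 3 libraries high, without overlap. In ESM1-NLS, ESM1-NES and Vector-2 the counting intervals of neighbours in the order of HES1, HES4, HES7 and HES6 overlapped, and HES2 and then HEY1 followed. In ESM1 the order below HES1 and HES4 was HES6, then HES7 and HEY1 with overlapping intervals, then HES2. In Vector-1 no neighbours among the 6 overlapped, and the order was HES1, HES4, HES6, HEY1, HES7 and HES2.

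HES2, a less studied member, showed the same split, and measured 1.87 FPKM with ESM1 and 0.81 FPKM with Vector-1, and 6.64 FPKM with ESM1-NLS, 5.9 FPKM with ESM1-NES and 5.51 FPKM with Vector-2. HEY1 did not. It measured 3.05 FPKM with ESM1 and 4.7 FPKM with Vector-1, and 4.71 FPKM with ESM1-NLS, 4.18 FPKM with ESM1-NES and 4.25 FPKM with Vector-2, so ESM1 was its lowest library and both vectors lay close to the tagged forms.

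**Figure D1:**
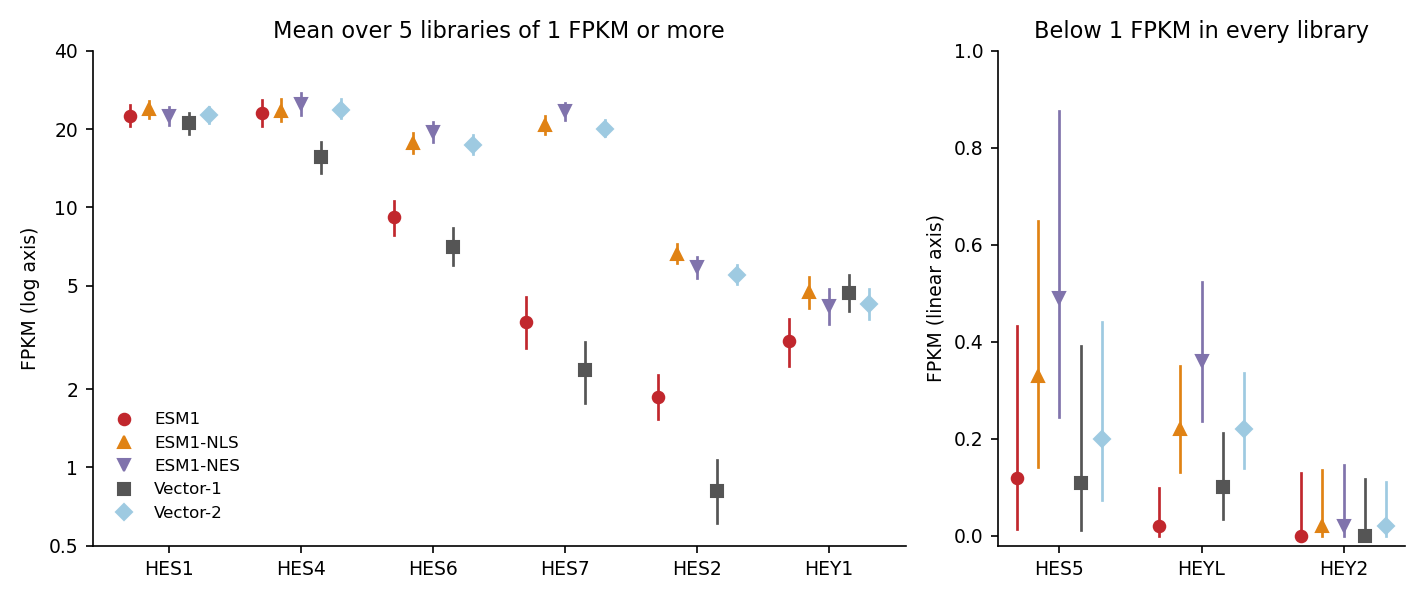
FPKM of the 9 members (log axis on the left, linear on the right) in the 5 libraries, with exact 95% intervals on the reads. HES1 is level, HES2, HES6 and HES7 are low in ESM1 and Vector-1, HES4 is low in Vector-1, and HEY1 is lowest in ESM1.

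The remaining 3 members stayed below 1 FPKM in every library and were left out of counts of members past a fold. HES5, the Notch effector of neural progenitors, measured 0.12 FPKM with ESM1 and 0.11 FPKM with Vector-1, and 0.33 FPKM with ESM1-NLS, 0.49 FPKM with ESM1-NES and 0.2 FPKM with Vector-2, on 2 to 11 reads. HEYL measured 0.02 FPKM with ESM1 and 0.1 FPKM with Vector-1, and 0.22 FPKM with ESM1-NLS, 0.36 FPKM with ESM1-NES and 0.22 FPKM with Vector-2. HEY2, a regulator of heart and vessel development, had 1 read in each of ESM1-NLS, ESM1-NES and Vector-2. It was listed at 0 in ESM1 and Vector-1, where a count of 0 allows up to 0.106 and 0.0962 FPKM at 3 reads. No difference of these 3 members between libraries of a table was detectable at this depth.

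The comparison of ESM1 with Vector-1 concerns the form without an added signal. HES2 was higher with ESM1. HEY1 measured less, and HES4, HES7 and HES6 measured more, each short of the fold used. A member was counted as higher or lower when its difference of log2(FPKM + 1) reached 1.5-fold and its mean over both libraries was 1 FPKM or more. By that rule 1 of 6 members was higher and 0 lower, beside 1.19% higher and 0.325% lower of 12296 genes, or 1.51% in either direction. That member, HES2, was at 0.81 FPKM in Vector-1 and passed the mean only through its 1.87 FPKM with ESM1. Nothing about the family is read from this count. The added 1 makes differences of low genes look smaller. In bulk RNA, fewer cells with a transcript and less of it per cell cannot be told apart.

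HES2 had 2.31 times its Vector-1 level (1.63 to 3.26), on an estimated 108 reads with ESM1 and 52 with Vector-1. Its log2 difference was 0.67, above 99.3% of genes tested. HES2 was no longer past the fold with a pseudocount of 5, and against Vector-2 in place of Vector-1 its log2 difference turned to -1.18. For HES4 the ratio was 1.48 (1.24 to 1.77), with ESM1 level with the other table and Vector-1 apart. HES7 had a ratio of 1.53 (1.09 to 2.22) on 80 and 57 reads, and HES6 one of 1.29 (1.03 to 1.62). Both intervals come close to 1. The FPKM ratio of HES7 is above 1.5, but its log2(FPKM + 1) difference of 0.46 is not past that fold.

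Base composition moved with these values. HES4, HES6 and HES7 transcripts have 74.0%, 66.6% and 63.3% GC, HES4 more than 99.9% of protein-coding genes. The 466 protein-coding genes in their class of length and GC had a median log2 difference of 0.20 in ESM1. Less that median, 0.34 remained for HES4, 0.13 for HES6 and 0.26 for HES7. Their class is the highest of 10 by GC, with a median of 64.5% GC over all lengths, so it lies below HES4 in GC. HES2, at 57.5% GC, kept 0.62 after a median of 0.04 was taken off. The part of GC content in these differences was not tested.

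HEY1 had a ratio of 0.649 (0.498 to 0.846) to Vector-1, on 93 reads with ESM1 and 158 with Vector-1. The FPKM ratio of HEY1 is past 1.5-fold lower, but its log2(FPKM + 1) difference of -0.49 is not. That difference lay above 0.626% of genes tested. Genes like HEY1 in length and GC had a median of -0.01. HES1 had a ratio of 1.07 (0.935 to 1.22), an interval that does not reach 1.5. Over the 6 members the log2 differences ran from -0.49 to 0.67 with a median of 0.39, beside 0.01 over all genes tested. The median was 0.19 after the median of genes of like length and GC was taken off each member. HES2 is among the 6 and passed the mean only through ESM1, so nothing about the family is read from these medians.

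**Figure D2:**
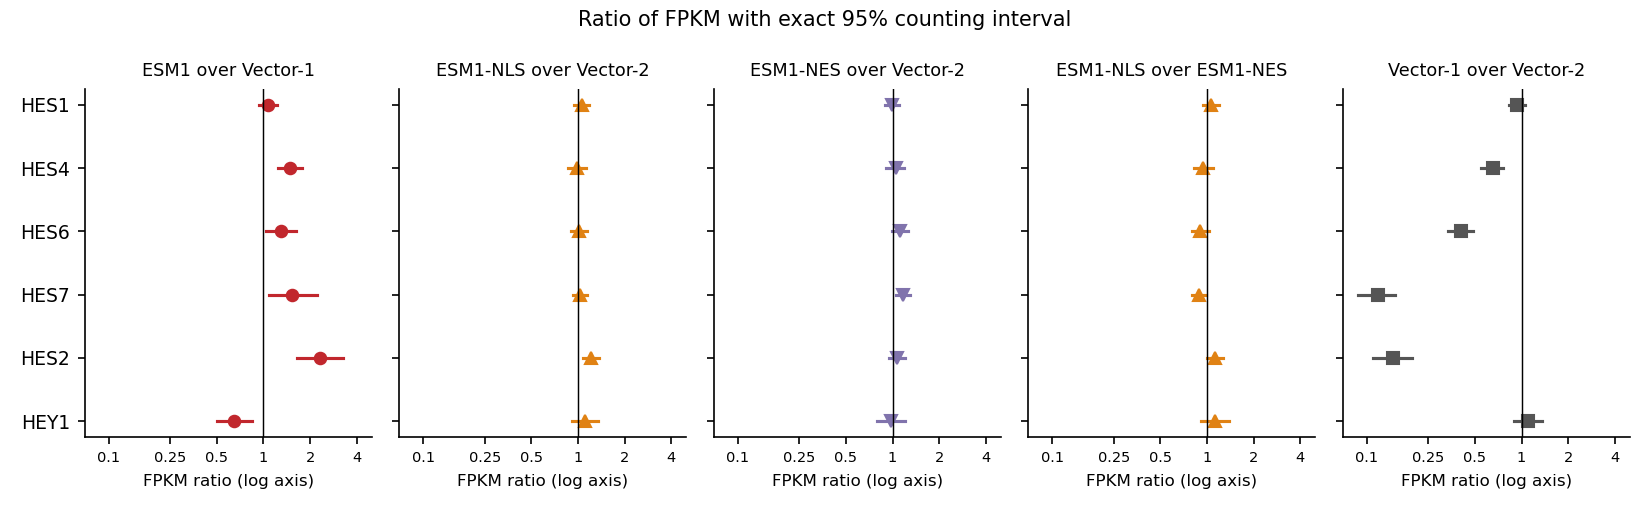
Ratio of FPKM (log axis) of the 6 members that averaged 1 FPKM or more, in 5 comparisons, with exact 95% counting intervals. HES2 lies at 2.31 and HEY1 at 0.649 in ESM1 over Vector-1, the comparisons of the tagged forms stay between 0.885 and 1.21, and HES7, HES2 and HES6 lie far below 1 in Vector-1 over Vector-2.

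With ESM1-NLS set against Vector-2, no member was past 1.5-fold, 0 of 6, beside 0.869% of 13000 genes. HES2 had the highest ratio, 1.21 (1.07 to 1.36), and the only interval of the 6 without 1 in it. The median of genes of like length and GC was 0.16, so that 0.07 of its log2 difference of 0.23 remained. HEY1 had a ratio of 1.11 (0.913 to 1.34) and HES1 one of 1.06 (0.948 to 1.17). The other ratios were 1.03 (0.927 to 1.14) for HES7, 1.02 (0.899 to 1.15) for HES6 and 0.987 (0.865 to 1.12) for HES4.

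ESM1-NES was set against the same Vector-2 library. Again 0 of 6 members passed 1.5-fold, beside 2.55% of 12902 genes. HES7 had the highest ratio, 1.16 (1.05 to 1.29), and HES6 came next at 1.12 (0.992 to 1.26). The log2 difference of HES7 was 0.21 with FPKM and 0.095 with TPM. HES2 had a ratio of 1.07 (0.943 to 1.21), HES4 of 1.05 (0.911 to 1.18), HES1 of 0.997 (0.890 to 1.11) and HEY1 of 0.984 (0.799 to 1.20). The 488 genes in the length and GC class of HES4, HES6 and HES7, which lies below HES4 in GC, had a median log2 difference of 0.29. Relative to it HES7 stood at -0.08, HES6 at -0.13 and HES4 at -0.22. In the authors' deposited table PPEE, by its name a probability of equal expression, had its lowest member value at 0.997 in ESM1-NLS, for HES2, and at 0.989 in ESM1-NES, for HES5. Values of 0.05 or less in the authors' deposited table were held by 0 of 9 members, beside 0.592% of 20282 genes in ESM1-NLS and 0.578% of 20056 in ESM1-NES.

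Setting ESM1-NLS against ESM1-NES left 0 of 6 members past 1.5-fold, beside 1.13% of 12915 genes. HES7 had a ratio of 0.885 (0.796 to 0.987), the only interval without 1. Its log2 difference of -0.17 was close to the -0.15 of genes like it in length and GC, and was -0.04 with TPM in place of FPKM. The ratio was 1.13 (0.918 to 1.39) for HEY1, 1.13 (0.993 to 1.28) for HES2 and 1.06 (0.946 to 1.19) for HES1. It was 0.938 (0.827 to 1.09) for HES4 and 0.906 (0.799 to 1.03) for HES6.

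Vector-1 and Vector-2 are both control cultures, and setting them side by side crosses the tables. HES7, HES2 and HES6 were far lower in Vector-1, while HES1 and HEY1 were not separated. Past 1.5-fold were 3 of 6 members, all lower, beside 14.3% lower and 19.2% in either direction of 12685 genes. The same 3 were past 2-fold lower, beside 3.67% of genes. HES2, at 0.81 FPKM in Vector-1, passed the mean only through Vector-2. As this difference was in view when the members were chosen, nothing is read from these counts.

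HES7 was at 0.117 (0.0871 to 0.152) of its Vector-2 level in Vector-1, on an estimated 57 reads in Vector-1 and 787 in Vector-2. Its log2 difference was -2.65. HES2 was at 0.147 (0.109 to 0.197) and HES6 at 0.406 (0.336 to 0.487). HES4 had a ratio of 0.656 (0.550 to 0.761), HES1 of 0.932 (0.826 to 1.05) and HEY1 of 1.11 (0.894 to 1.35). Genes in the length and GC class of HES4, HES6 and HES7, which lies below HES4 in GC, had a median of -0.43. That is near the -0.58 of HES4 and short of the -1.19 of HES6. For HES2 the like genes had a median of -0.20 beside its own -1.85. For each of HES2, HES6 and HES7 the vectors differed by a larger factor than any form of ESM1 did from its own vector. Culture, library and processing cannot be told apart in that difference.

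**Figure D3:**
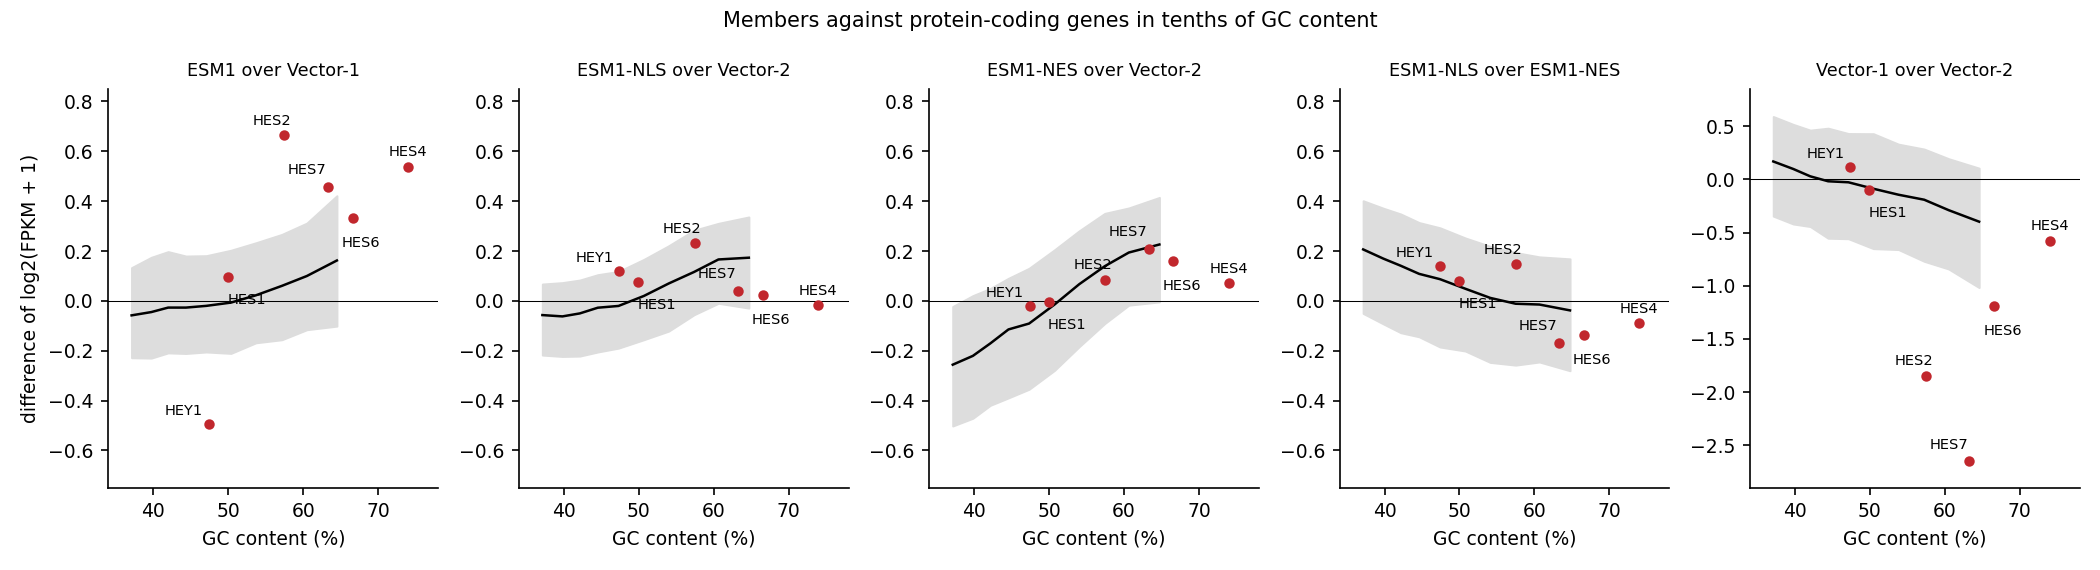
Difference of log2(FPKM + 1) of 6 members (red points) against transcript GC content in 5 comparisons, the rightmost panel on a longer scale. The line is the median and the grey band the range from the 10% to the 90% point of protein-coding genes in 10 groups by GC content, and HES7, HES2 and HES6 lie below the band in Vector-1 over Vector-2.

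A split by table was common among all genes. Of 12766 genes that averaged 1 FPKM or more over the 5 libraries, 40.4% had ESM1 and Vector-1 both below the other 3 libraries, as HES2, HES4, HES6 and HES7 did, and 3.59% by at least 2-fold. The gap between the nearest libraries of each table was 5.57-fold for HES7, 2.95-fold for HES2, 1.90-fold for HES6 and 1.02-fold for HES4. Family levels summed to 63.4 FPKM with ESM1, 51.8 FPKM with Vector-1, 97.6 FPKM with ESM1-NLS, 101.4 FPKM with ESM1-NES and 94.0 FPKM with Vector-2. HES7 made up 5.69% of the sum with ESM1 and 4.56% with Vector-1, and 21.2% to 23.1% in the second table.

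HES7 and HES2 had the widest range, and genes with the most similar patterns were ranked among 8911 protein-coding genes averaging 5 FPKM or more. The measure was the root mean square difference of gene-centred log2(FPKM + 1) over 5 libraries. Nearest to HES7 were EFNA3, an ephrin ligand gene, at 0.16, RPL21 at 0.16, the TGF-β ligand gene TGFB3 at 0.23, HBA1 at 0.24 and PHGR1 at 0.24. RPL21 and HBA1 have near-identical copies, so their reads are uncertain. EFNA3 measured 8.82 FPKM with ESM1 and 8.05 FPKM with Vector-1, and 45.86 FPKM with ESM1-NLS, 48.13 FPKM with ESM1-NES and 41.38 FPKM with Vector-2. Nearest to HES2 were the stress response gene GADD45G at 0.06, EDN2 at 0.09, LRRC26 at 0.10, YPEL3 at 0.12 and HIST2H4A, a histone gene with a near-identical copy, at 0.12. GADD45G measured 11.87 FPKM with ESM1 and 6.21 FPKM with Vector-1, and 30.7 FPKM with ESM1-NLS, 28.04 FPKM with ESM1-NES and 27.73 FPKM with Vector-2.

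**Figure D4:**
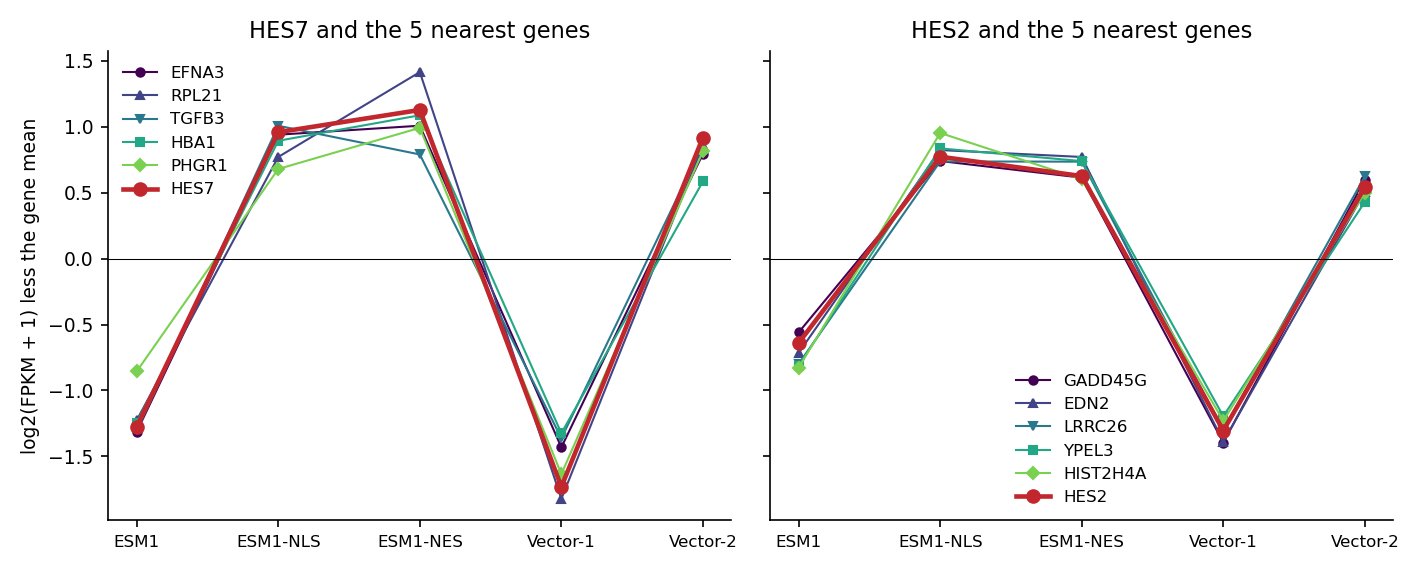
log2(FPKM + 1) less the gene's mean over the 5 libraries, for HES7 and HES2 (red) and the 5 genes nearest to each. Every line is low in ESM1 and Vector-1 and lowest in Vector-1.

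Besides the family, 103 genes of the Notch pathway and related lists were examined, of which 102 were in the tables. Of 72 with a mean of 1 FPKM or more in ESM1 and Vector-1, 2 were 1.5-fold higher with ESM1, CDKN1A and GADD45G, and 0 lower, which is 2.78% beside 1.51% of all genes. In ESM1-NLS 0 of 75 passed in either direction, beside 0.869%. In ESM1-NES 0 of 74 were higher and 1 was lower, the histone demethylase gene KDM5A, which is 1.35% beside 2.55%. Between Vector-1 and Vector-2, 3 of 75 were higher and 10 lower in Vector-1, which is 17.3% beside 19.2% of all genes.

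Ligands were sparse. JAG2 had the highest level and measured 4.82 FPKM with ESM1 and 4.59 FPKM with Vector-1, and 9.71 FPKM with ESM1-NLS, 8.54 FPKM with ESM1-NES and 8.24 FPKM with Vector-2. Its ratio was 1.05 (0.910 to 1.21) in ESM1 and 1.18 (1.08 to 1.28) in ESM1-NLS. DLL3, an inhibitory ligand associated with neuroendocrine tumours, measured 0.88 FPKM with ESM1 and 1.12 FPKM with Vector-1, and 2.47 FPKM with ESM1-NLS, 1.84 FPKM with ESM1-NES and 1.88 FPKM with Vector-2. JAG1, DLL1 and DLL4 stayed below 1 FPKM and DLK1 was listed at 0.

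Among the receptors NOTCH3, itself a Notch target, measured 4.31 FPKM with ESM1 and 3.78 FPKM with Vector-1, and 10.28 FPKM with ESM1-NLS, 10.48 FPKM with ESM1-NES and 10.9 FPKM with Vector-2. Like HES6 and HES7 it was low in ESM1 and Vector-1, at 0.347 (0.313 to 0.384) of its Vector-2 level in Vector-1. The ratio of NOTCH1 was 1.23 (1.09 to 1.40) in ESM1, 0.895 (0.821 to 0.975) in ESM1-NLS and 0.895 (0.818 to 0.976) in ESM1-NES. NOTCH2, which shares sequence with the NOTCH2NL genes, had ratios of 0.898 (0.792 to 1.01), 0.835 (0.766 to 0.908) and 0.685 (0.624 to 0.752) in ESM1, ESM1-NLS and ESM1-NES. In ESM1-NES its log2 difference was -0.44, beside a median of -0.19 for genes of like length and GC.

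Genes that cut or glycosylate the receptors had 0 of 12 past 1.5-fold in ESM1, 0 of 13 in ESM1-NLS and 0 of 13 in ESM1-NES. Of all genes tested, 1.51%, 0.869% and 2.55% were past it, and nothing is read from counts of 0 in so few genes. The genes of this list had median log2 differences of -0.01, 0.08 and -0.03, beside 0.01, 0.02 and -0.03 over all genes. ADAM10, the protease of the first activating cut, had a ratio of 0.748 (0.695 to 0.801) in ESM1-NES. PSENEN, a γ-secretase subunit gene, had ratios of 1.17 (1.07 to 1.29), 1.17 (1.08 to 1.27) and 1.33 (1.22 to 1.43) in ESM1, ESM1-NLS and ESM1-NES. MIB1, a ubiquitin ligase that activates ligands, had a ratio of 0.635 (0.588 to 0.685) in ESM1-NES, a log2(FPKM + 1) difference of -0.57 and just short of the limit. Genes of like length and GC moved the same way in ESM1-NES. Their median log2 difference was -0.32 beside -0.39 for ADAM10, 0.24 beside 0.41 for PSENEN and -0.36 beside -0.57 for MIB1.

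RBPJ, the DNA-binding partner of Notch, measured 27.34 FPKM with ESM1 and 28.96 FPKM with Vector-1, and 22.48 FPKM with ESM1-NLS, 17.91 FPKM with ESM1-NES and 25.72 FPKM with Vector-2. Its ratio was 0.944 in ESM1, 0.874 (0.830 to 0.918) in ESM1-NLS and 0.696 (0.651 to 0.728) in ESM1-NES. EP300, a histone acetyltransferase of the Notch complex, had ratios of 0.710 (0.667 to 0.755) in ESM1-NLS and 0.726 (0.681 to 0.772) in ESM1-NES. KDM5A was at 0.631 (0.592 to 0.673) of its Vector-2 level in ESM1-NES. SPEN, an RBPJ co-repressor gene, had ratios of 0.772 (0.733 to 0.813), 0.807 (0.772 to 0.843) and 0.785 (0.749 to 0.820) in ESM1, ESM1-NLS and ESM1-NES. Several of these transcripts are long, and across 11636 protein-coding genes the difference in ESM1-NES had a Spearman's rho of -0.61 with length and 0.68 with GC content. These are correlations across genes within the same libraries, and their part in the ratios was not tested. Of the co-repressors of HES and HEY proteins, TLE3 had a ratio of 1.19 (1.11 to 1.27) in ESM1. In any form of ESM1 0 of 5 were past 1.5-fold. The shares of all genes were 1.51% in ESM1, 0.869% in ESM1-NLS and 2.55% in ESM1-NES, and nothing is read from this count.

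**Figure D5:**
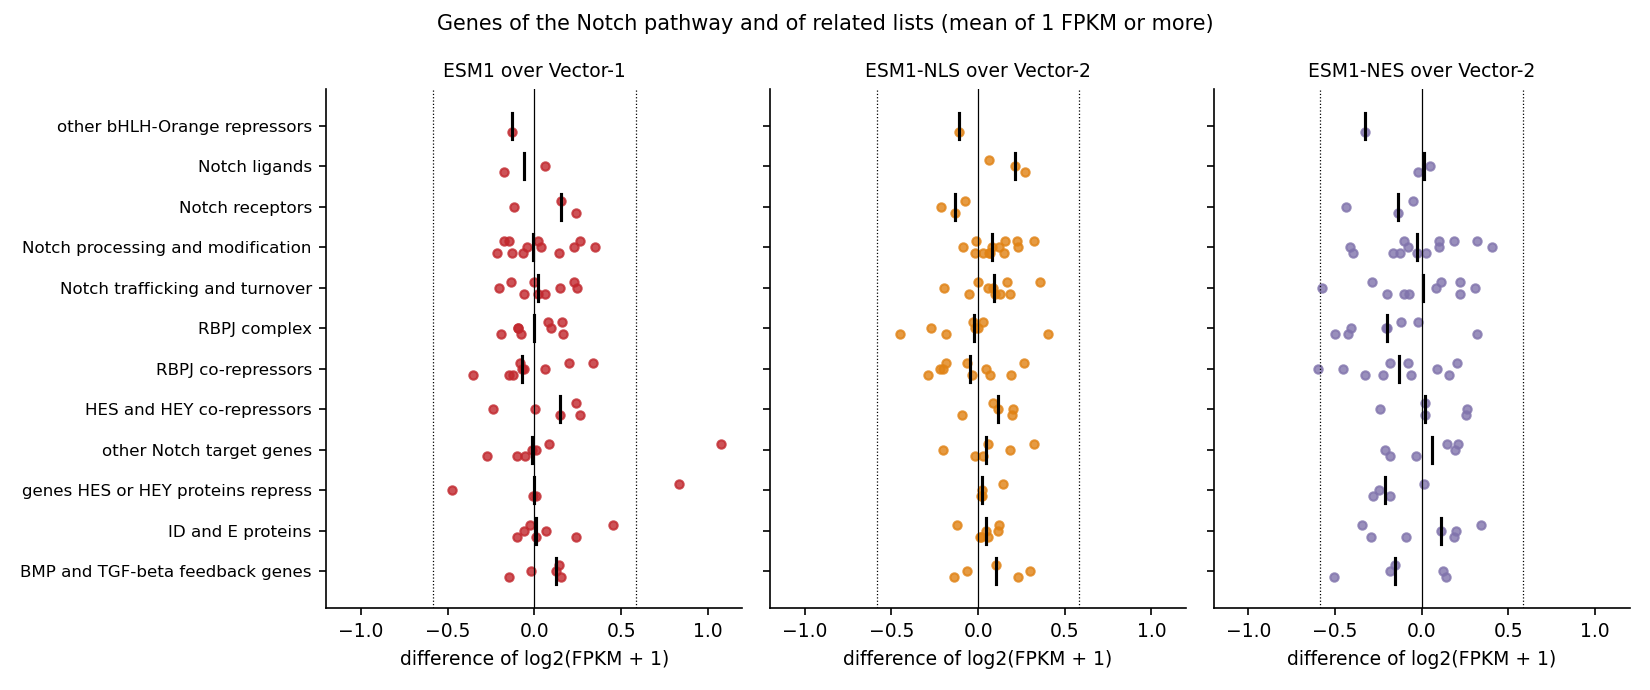
Difference of log2(FPKM + 1) of listed genes averaging 1 FPKM or more, for ESM1, ESM1-NLS and ESM1-NES over their vectors, with list medians as black bars and the 1.5-fold limits dotted. CDKN1A and GADD45G in ESM1 and KDM5A in ESM1-NES are the points beyond the limits.

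Of other Notch target genes 1 of 7 was past 1.5-fold in ESM1, beside 1.51% of 12296 genes. That gene, the cell cycle inhibitor CDKN1A, also a p53 target, measured 97.17 FPKM with ESM1 and 45.59 FPKM with Vector-1, and 245.65 FPKM with ESM1-NLS, 217.52 FPKM with ESM1-NES and 196.31 FPKM with Vector-2, with a ratio of 2.13 in ESM1. NRARP, a target that feeds back on Notch, measured 8.79 FPKM with ESM1 and 10.84 FPKM with Vector-1, and 15.04 FPKM with ESM1-NLS, 14.36 FPKM with ESM1-NES and 14.72 FPKM with Vector-2, with a ratio of 0.811 (0.699 to 0.943) in ESM1. Among genes that HES or HEY proteins repress, GADD45G had a ratio of 1.91 (1.47 to 2.50) in ESM1 and CDKN1C, a cell cycle inhibitor gene, one of 0.599 (0.371 to 0.920). CDKN1B had ratios of 1.01, 1.02 and 0.879 in ESM1, ESM1-NLS and ESM1-NES. The proneural genes ATOH1, NEUROG2, NEUROG3 and NEUROD1 stayed at 0.49 FPKM or less, and NEUROG1 was listed at 0.

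BHLHE41, a clock-related repressor with an Orange domain, measured 39.99 FPKM with ESM1 and 43.88 FPKM with Vector-1, and 37.28 FPKM with ESM1-NLS, 32.02 FPKM with ESM1-NES and 40.35 FPKM with Vector-2. BHLHE40, HES3 and HELT stayed below 1 FPKM. ID proteins hold other helix-loop-helix proteins off DNA, and ID1, ID2 and ID3 had levels well above any HES or HEY gene. ID3 measured 310.97 FPKM with ESM1 and 226.96 FPKM with Vector-1, and 344.35 FPKM with ESM1-NLS, 400.37 FPKM with ESM1-NES and 316.04 FPKM with Vector-2, with a ratio of 1.37 (1.31 to 1.43) in ESM1, where Vector-1 was the lowest library as it was for HES4. Genes of like length and GC to ID3 had a median log2 difference of 0.10 beside its 0.45. ID1 had a ratio of 1.18 (1.12 to 1.25) in ESM1. SMAD7, a feedback gene of the TGF-β pathway, had ratios of 1.10 (0.956 to 1.27) in ESM1 and 1.27 (1.10 to 1.45) in ESM1-NLS.

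Neuroendocrine markers, with which HES6 is often read, summed to 143.2 FPKM with ESM1, 153.6 FPKM with Vector-1, 178.5 FPKM with ESM1-NLS, 170.2 FPKM with ESM1-NES and 165.4 FPKM with Vector-2, with 4 or 5 of 8 at 1 FPKM or more. INSM1 and NCAM1 were at 0.03 FPKM or less. CHGA, the chromogranin A gene, measured 1.01 FPKM with ESM1 and 0.98 FPKM with Vector-1, and 3.66 FPKM with ESM1-NLS, 2.81 FPKM with ESM1-NES and 3.17 FPKM with Vector-2. CHGA was low in the libraries where HES6 was low, as were ENO2 and SYP by less, but CHGB and SCG3, secretory granule genes, were not. Of 12766 genes averaging 1 FPKM or more, 40.4% were lower in both ESM1 and Vector-1. No link between HES6 and these markers is read from the shared pattern. ENO2 measured 64.48 FPKM with ESM1 and 78.63 FPKM with Vector-1, and 97.19 FPKM with ESM1-NLS, 88.23 FPKM with ESM1-NES and 90.39 FPKM with Vector-2. For SYP the levels were 37.55 FPKM with ESM1 and 34.95 FPKM with Vector-1, and 41.96 FPKM with ESM1-NLS, 46.35 FPKM with ESM1-NES and 39.38 FPKM with Vector-2. CHGB measured 18.82 FPKM with ESM1 and 17.21 FPKM with Vector-1, and 16.08 FPKM with ESM1-NLS, 15.06 FPKM with ESM1-NES and 14.05 FPKM with Vector-2. SCG3 measured 21.37 FPKM with ESM1 and 21.8 FPKM with Vector-1, and 19.6 FPKM with ESM1-NLS, 17.76 FPKM with ESM1-NES and 18.31 FPKM with Vector-2. Both were higher in ESM1 and Vector-1 than in the other 3 libraries.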

How the data were processed

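Sample titles gave the groups and the design text gave each form of ESM1 its vector. The submitters' processing notes name Trimmomatic, Bowtie2, RSEM and hg19, with no versions. For ESM1-NLS, ESM1-NES and Vector-2 the file headers show that the authors deposited FPKM, TPM and expected counts. Beside these the authors deposited a fold change, which is a ratio, and a score headed PPEE. The deposited table of ESM1 and Vector-1 names no unit. It was read as FPKM because its columns have different totals and its low values lie on steps of whole reads. No source used here says whether reads were counted by strand, so overlapping antisense genes may share reads.

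Effective length was taken from FPKM and expected counts. For ESM1 and Vector-1, depth was set where low values were closest to whole reads: 98.0% of 101 values in ESM1 and 100% of 80 in Vector-1 lay within 0.15 reads. Differences of log2(FPKM + 1) were computed over all genes, without a test because no group has a second library. Reads were rounded for the intervals, and 3 reads served as the limit for a count of 0. GC content came from the GENCODE transcript (GRCh38) nearest in length, for 97.2% of protein-coding genes tested, which were grouped in 4 classes of length by 10 of GC. The code was tested on simulated data. From each list, the 4 genes with the largest absolute difference in a comparison were to be named. Levels and ratios of other listed genes were chosen for their roles after values were seen. Members and lists were chosen with earlier results of these data known. Some listed genes are not reported here. Alternatives are given in the closing section. Python 3.11.15, pandas 2.3.3, NumPy 2.4.6 and SciPy 1.17.1 were used.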

Additional observations from a re-analysis of the deposited data

How the results depend on the processing

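No paired analysis was possible because each group has 1 library. The alternatives were pseudocounts of 0.1 and 5, no filter, a mean of 5 FPKM, a 2-fold limit, TPM, centring on the median, subtraction of the median of genes of like length and GC, CPM, and the vector of the other table. Of 45 counts of members called under them, 38 were within 1.5 times the count given. Most of the 38 were counts of 0 that stayed at 0 in comparisons of ESM1-NLS and ESM1-NES, where a factor of 1.5 has no meaning. The 1 member called in ESM1 over Vector-1, HES2, became 3 with a pseudocount of 0.1, beside 3.43% of genes tested. HES7 was added as higher and HEY1 as lower. With a pseudocount of 5, a mean of 5 FPKM or more, which leaves 3 members, or the 2-fold limit, the count was 0. With Vector-2 as control 3 members were called in ESM1, all lower, beside 14.7% of genes tested in either direction. HES2 then turned to a log2 difference of -1.18. With Vector-1 as control 3 members were called higher in ESM1-NLS, beside 24.7% of genes tested in either direction. In ESM1-NES 4 were, beside 29.1%. Against Vector-2 the count was 0 for both. The cause was not tested. Of 232 differences of single members, 210 moved by no more than 0.5 of the log2 width of the counting interval of the FPKM ratio. A further 21 moved by more, and 1, HES2 in ESM1, was called in the opposite direction. Several of the 21 also changed sign, as did some near 0 among the 210. With Vector-2 as control, ESM1 gave -2.19 for HES7, -0.86 for HES6 and -0.04 for HES4. Less the median of genes of like length and GC, ESM1-NES gave -0.22 for HES4, -0.13 for HES6 and -0.08 for HES7. Counts stayed at 0 for ESM1-NLS over ESM1-NES and within 1.5 times for Vector-1 over Vector-2 under each alternative run for them. Depth limits HES5, HEY2 and HEYL most, with at most 27 reads a library.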

Other observations

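Genes next to the members on the chromosome were looked up in GENCODE on GRCh38 after the values were seen. ESPN, beside HES2 on the opposite strand, measured 1.79 FPKM with ESM1 and 1.68 FPKM with Vector-1, and 7.17 FPKM with ESM1-NLS, 5.72 FPKM with ESM1-NES and 5.64 FPKM with Vector-2, low in the same libraries as HES2. ACOT7, on the other side of HES2 and on its strand, measured 30.04 FPKM with ESM1 and 25.68 FPKM with Vector-1, and 27.96 FPKM with ESM1-NLS, 33.65 FPKM with ESM1-NES and 23.02 FPKM with Vector-2, and was not split by table. PER1, a clock gene beside HES7, measured 5.42 FPKM with ESM1 and 4.8 FPKM with Vector-1, and 9.06 FPKM with ESM1-NLS, 8.31 FPKM with ESM1-NES and 8.67 FPKM with Vector-2. ALOXE3, on the other side of HES7, measured 1.82 FPKM with ESM1 and 1.9 FPKM with Vector-1, and 2.65 FPKM with ESM1-NLS, 2.23 FPKM with ESM1-NES and 2.03 FPKM with Vector-2. ISG15, an interferon-stimulated gene beside HES4 on the opposite strand, measured 155.68 FPKM with ESM1 and 111.66 FPKM with Vector-1, and 143.77 FPKM with ESM1-NLS, 180.84 FPKM with ESM1-NES and 139.64 FPKM with Vector-2, with Vector-1 the lowest library as for HES4. PER2, beside HES6, measured 5.37 FPKM with ESM1 and 5.37 FPKM with Vector-1, and 7.06 FPKM with ESM1-NLS, 5.3 FPKM with ESM1-NES and 6.92 FPKM with Vector-2, and was not split by table as HES6 was.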
